A study of Mus musculus with 8 samples.

Results

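Glycolysis and the response to low oxygen were followed through 42 named genes in cells that had entered the mouse brain after an experimental stroke. The genes were taken from a list of glucose and lactate transporters (4), glycolytic enzymes (18), regulators of glycolytic flux (3), oxygen sensors (6) and targets of the hypoxia-inducible factors (11), and every probe named for a listed gene was used. All 42 were found among the 47242 names on the array, through 68 probes. Of these genes, 40 had a probe bright enough to test, out of 42314 genes tested in all. The hypoxia-inducible factor targets Ankrd37 and Car9 were not bright enough.

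The mice were bone marrow chimeras: wild-type hosts whose transplanted marrow carried the red fluorescent protein DsRed and was either wild-type (Psgl1+/+) or without a functional Selplg gene (Psgl1-/-). The product of Selplg, PSGL-1, is the main selectin ligand of leukocytes and serves their adhesion to vessel walls. In both groups the middle cerebral artery had been occluded for 30 min, and the brain was taken at day 7 of reperfusion. Living cells were sorted as DsRed+, CD11b+ and CD45hi, and as negative for Ly6G (neutrophils) and CD3 (T cells), which leaves donor-derived myeloid cells, largely monocytes and macrophages by these markers. RNA of 4 wild-type samples (arrays 1 to 4) and 4 knockout samples (arrays 5 to 8) was hybridised in a single colour. The labels do not give the age of the mice or how many contributed to a sample, and the p-values reflect the spread among these samples alone, which could be technical. The host keeps its own cells, which lack DsRed, and the comparison says nothing of them.

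Glycolysis splits glucose into pyruvate in the cytosol. Glucose enters through GLUT transporters, is trapped by hexokinases, committed by phosphofructokinase, and leaves as lactate through monocarboxylate transporters when pyruvate is reduced by lactate dehydrogenase. The hypoxia-inducible factors are dimers of an oxygen-labile alpha subunit (Hif1a or Epas1) and Arnt. In normal oxygen, prolyl hydroxylases of the Egln family mark the alpha subunit for destruction by the Vhl ubiquitin ligase. In low oxygen the subunit persists and switches on many glycolytic genes, so that much of its control is on the protein and not on its mRNA. Inflammatory activation of macrophages is known to raise glycolysis and the Hif1a protein as well.

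Signal is given throughout as log2 of the processed spot intensity after each array was scaled to its 75th percentile, and a difference is knockout minus wild-type on that scale. Levels of different genes are not compared, since probes differ in brightness for reasons other than RNA. Between 76.1% and 88.2% of gene spots on an array were well above background. All 8 arrays lay on 1 slide, whose rows each held 2 arrays of either group, while columns 1 and 2 were all wild-type and columns 3 and 4 all knockout, so that column and genotype cannot be told apart. The 1 probe of Selplg was at 12.68 to 15.74 in wild-type and 12.88 to 13.45 in knockout samples, with overlap. The sources used here do not say which part of Selplg is deleted, so this probe checks nothing about the labels. All 11 macrophage and monocyte markers were well above background on every array, but so were all 8 microglial, all 7 neuronal and all 6 oligodendrocyte markers and 6 of 7 T cell markers, so brightness alone could not check the sort. The signals of a list were summed and the sum taken to log2, so that the brightest markers weigh most. The resulting value of the macrophage and monocyte markers was 15.62 to 17.11 on wild-type and 15.58 to 17.23 on knockout arrays. That of the neuronal markers was 17.13 to 17.76 and 16.60 to 16.96, that of the T cell markers 12.47 to 13.37 and 11.88 to 12.32, and that of the B cell markers 15.04 to 15.28 and 14.43 to 14.87, all lower in knockout and without overlap, as were the means over all tested genes (8.25 to 8.46 and 8.06 to 8.22). The summed signals of the other 8 of 11 marker lists overlapped. Among them the 8 neutrophil markers leaned higher in knockout arrays, at 12.11 to 13.57 beside 10.10 to 12.76. On average 5 of 8 markers were higher, while Ltf (6.41 in wild-type and 6.10 in knockout arrays), Camp (8.44 and 7.75) and Cxcr2 (7.38 and 7.08) were lower. Ly6g, the marker used for exclusion in the sort, was at 2.30 to 8.59 on wild-type and 6.54 to 10.92 on knockout arrays. S100a9, which monocytes make as well, was at 4.49 to 11.42 and 11.61 to 12.97, without overlap, and was picked out after its values were seen. It was the brightest of the 8 on every knockout array and made up most of their sum there, so the lean of the list rests largely on it. The part of these markers in the results was not tested, and in such bulk samples fewer cells of a type and less RNA per cell cannot be told apart.

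No glycolysis or hypoxia gene differed between knockout and wild-type cells past the threshold of the test. By limma, with p-values adjusted over all tested genes by Benjamini-Hochberg, 0 of 40 had an adjusted p under 0.05 (lowest 0.459), against a background of 0.00236% of all tested genes, which is 1 gene. At an unadjusted p under 0.05, 2 of the 40 were higher in the knockout arrays (the lactate transporter Slc16a1 and the phosphofructokinase Pfkl) and 0 were lower. When the probes of a gene were averaged in place of taking the brightest, Slc16a1 alone had such a p. The background was 1.63% of all genes higher and 9.18% lower. The 4 knockout arrays lay wholly above the wild-type arrays for 1 gene, Slc16a1 (background 0.65%), and wholly below for 3, Pfkfb4, Pdk1 and Epas1 (background 10.8%).

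By sign alone, 27 of the 40 differences were above 0 and 13 below, which is 67.5% above 0 beside 31.1% of all tested genes. The median was 0.18 for the 40 genes and -0.33 for all genes. It was 0.33 for the 25 genes of glycolysis and transport and 0.15 for the 15 tested genes of oxygen sensing and its targets. The shift of all genes depends on the scaling: it was -0.17 after quantile normalization and -0.01 after cyclic loess, where 49.2% of all genes and 72.5% of the 40 (median 0.45) were above 0. These counts describe the list and carry no test. They also move with single arrays, while the median of all genes stayed between -0.39 and -0.26 with 1 array left out. Without wild-type array 1, 21 of 40 differences were above 0 (52.5%, median 0.08), beside 32.0% of all genes. Without knockout array 7 there were 22 (55%, median 0.08), beside 32.9%. Without array 8 there were 21 (52.5%, median 0.10), beside 31.7%. The median was 0.33 without wild-type array 4, 0.41 without array 5 and 0.57 without array 6. Without arrays 7 and 8 together, 19 of 40 differences were above 0 (47.5%, median -0.07), beside 35.1% of all genes (median -0.26). The glycolysis median was 0.09 without wild-type array 1, 0.12 without array 3, 0.69 without array 6 and -0.07 without array 8. The hypoxia median was -0.03 without array 1, -0.01 without array 7, 0.35 without array 3 or 4, 0.38 without array 5 and 0.54 without array 6.

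**Figure D1:**
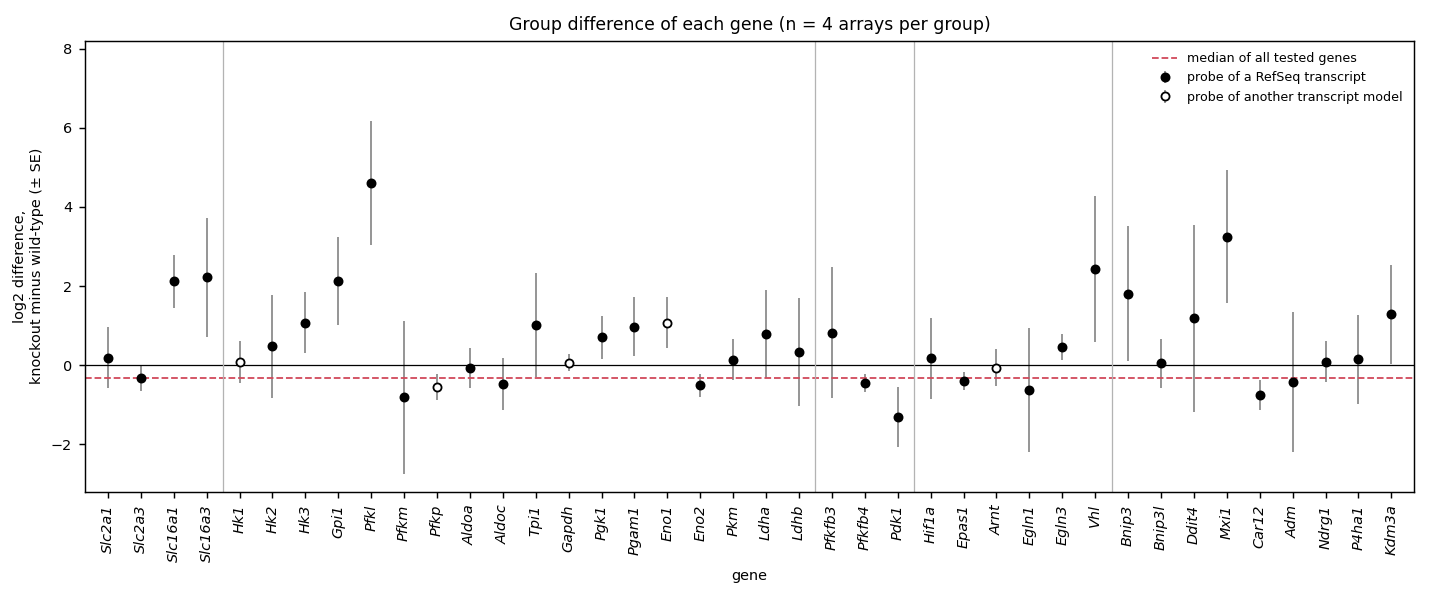
Log2 difference (knockout minus wild-type) of each of the 40 tested genes, ordered by role, with its standard error (n = 4 arrays per group). Filled points are probes of RefSeq transcripts, open points probes of other transcript models, and the dashed line is the median of all tested genes at -0.33. Pfkl stands highest at 4.61 and Pdk1 lowest at -1.32, and no gene passed the adjusted threshold.

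Both lactate transporters had a difference above 2, while the glucose transporters had differences below the standard deviation within a group. Slc16a1 encodes MCT1, which carries lactate and pyruvate with a proton across the membrane. It was at 5.13, 4.95, 4.94 and 4.996 on wild-type arrays 1 to 4 and at 9.30, 6.36, 6.40 and 6.45 on knockout arrays 5 to 8. The groups did not overlap, and array 5 stood apart from the other knockout arrays. Wild-type signals were well above background but dim, within the range of the lowest quartile of tested genes by mean signal (3.02 to 6.36). The difference was 2.12 (SE 0.67), or 4.35-fold, with an unadjusted p of 0.0144 and an adjusted p of 0.459, and it was 1.40 without array 5 (adjusted p = 0.342, range over all settings 0.342 to 0.873).

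Slc16a3 encodes MCT4, the main lactate exporter of glycolytic cells and a known target of Hif1a. Its signal was 6.88, 6.43, 6.76 and 7.07 in wild-type samples and 11.26, 6.29, 12.51 and 5.99 on the knockout arrays. Arrays 5 and 7 were far above the wild-type range and arrays 6 and 8 just below it, so the groups overlapped. The difference was 2.23 (SE 1.503, adjusted p = 0.541). Arrays 5 and 7 share slide row 2, where the difference was 5.06, against -0.61 in slide row 1.

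Slc2a1 encodes GLUT1, the basal glucose transporter. Its values of 12.76, 10.52, 10.83 and 11.90 on wild-type arrays and 11.19, 10.19, 13.32 and 12.08 on knockout arrays overlapped widely (difference 0.19, SE 0.77), and the sign changed without array 2, 3 or 7. Slc2a3, which encodes the high-affinity transporter GLUT3, was at 7.36 ± 0.40 (SD, n = 4) in wild-type and 7.04 ± 0.45 (SD, n = 4) in knockout arrays (difference -0.33, SE 0.33, adjusted p = 0.682).

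**Figure D2:**
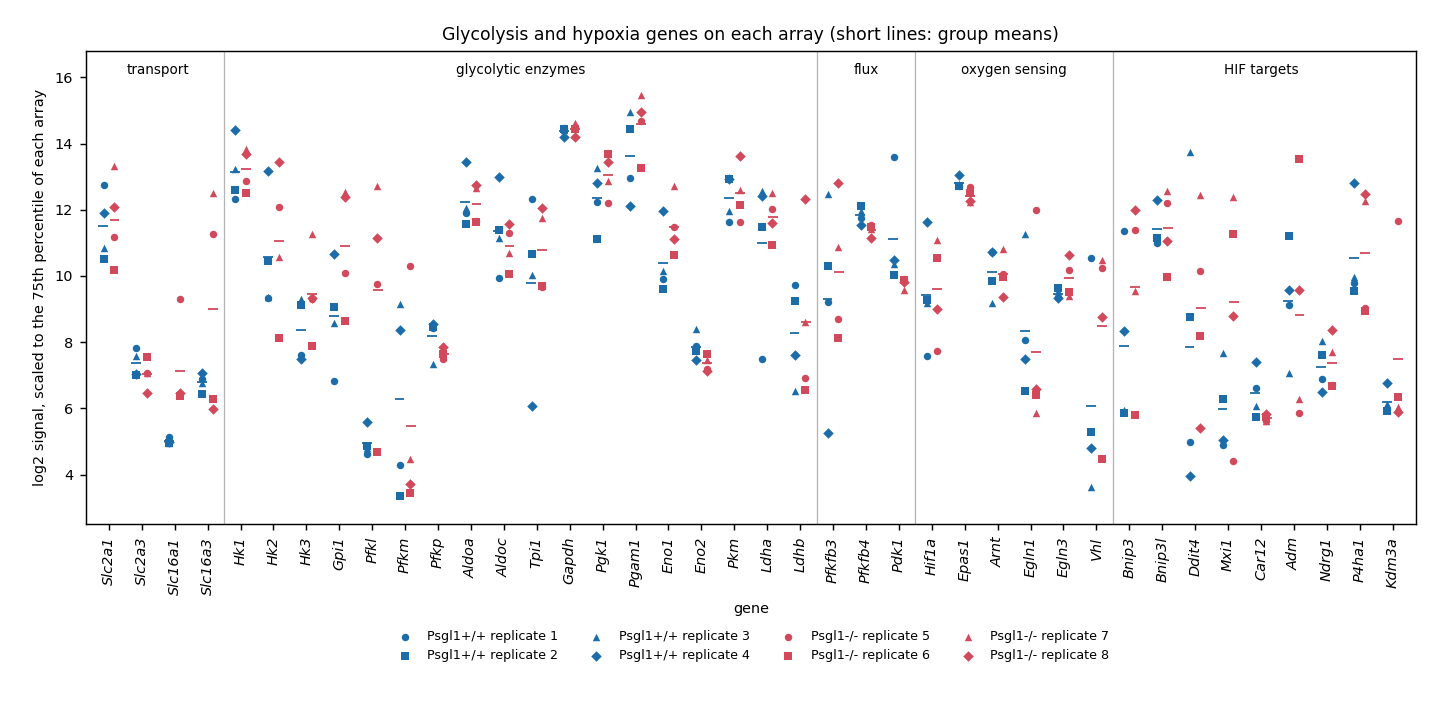
Log2 signal of the 40 tested genes on each array, scaled to the 75th percentile of the array, with wild-type arrays in blue and knockout arrays in red and short lines at the group means. Heights of different genes are not comparable. For Pfkl and Slc16a3 the knockout arrays split into high and low ones, and for Vhl the arrays of both groups do. All 8 arrays of Gapdh lie between 14.21 and 14.62.

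Among the 18 glycolytic enzymes 13 differences were above 0 and 5 below, and only that of Pfkl had an unadjusted p under 0.05. Pfkl encodes the liver-type phosphofructokinase, 1 of 3 isoforms that commit glucose to glycolysis. On its RefSeq probe it was at 4.63, 4.86, 4.81 and 5.57 in wild-type samples and at 9.77, 4.68, 12.73 and 11.13 on the knockout arrays. The knockout arrays 5, 7 and 8 were far above all wild-type arrays, while array 6 was among them. As for Slc16a1, the wild-type signals were well above background but within the range of the dimmest quartile of tested genes. The difference was 4.61 (SE 1.56, unadjusted p = 0.0194, adjusted p = 0.459), and without array 6 it was 6.24 (adjusted p = 0.0956, range over all settings 0.0956 to 0.873). Each gene was read by its brightest probe, averaged across the 8 arrays, and this one was the brightest of 3 through its high knockout arrays: on wild-type arrays it was the dimmest, at 4.97 beside 6.40 and 6.94. The choice of probe thus used the values compared, and the mean over the 3 probes differed by 1.63 (adjusted p = 0.486). The other isoforms gave -0.81 (SE 1.93) for the muscle type Pfkm and -0.55 (SE 0.33) for the platelet type Pfkp. For Pfkm, 2 of 4 wild-type arrays were well above background.

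Gpi1 encodes glucose-6-phosphate isomerase, which acts just before phosphofructokinase. It was at 6.84, 9.05, 8.59 and 10.67 on wild-type arrays and 10.10, 8.63, 12.54 and 12.39 on knockout arrays. Arrays 7 and 8 were above the wild-type range, and arrays 5 and 6 within it. The difference was 2.13 (SE 1.11, adjusted p = 0.477), and 0.58 without arrays 7 and 8. Here too the probe used was the brighter through the knockout arrays (8.79 beside 9.10 on wild-type arrays), and the mean over both probes differed by 0.19.

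Hexokinases trap glucose by phosphorylation. Hk2, the inducible form that binds mitochondria, was at 9.33, 10.45, 9.36 and 13.16 on wild-type arrays and 12.07, 8.12, 10.58 and 13.46 on knockout arrays, so both groups ran over a wide range (difference 0.48, SE 1.30, adjusted p = 0.888). Hk3, the form typical of myeloid cells, had a difference of 1.07 (SE 0.77), positive in every setting tried but never called. Hk1, the constitutive form, had one of 0.09 (SE 0.53).

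In the middle of the pathway the aldolases Aldoa (-0.07, SE 0.50) and Aldoc (-0.47, SE 0.66), which cleave fructose bisphosphate, and the triose phosphate isomerase Tpi1 (1.01, SE 1.32) each had a difference below its standard error. The sign for Aldoa was positive under all 5 other scalings (0.05 to 0.21). Gapdh encodes the dehydrogenase that makes the first high-energy phosphate of the pathway and is a common reference gene. It was at 14.49, 14.45, 14.40 and 14.21 on wild-type arrays and 14.50, 14.45, 14.62 and 14.21 on knockout arrays. It was thus the least variable of the core genes given here array by array (difference 0.06, SE 0.22), on a probe of a transcript model outside RefSeq. Under the 5 other scalings the difference of Gapdh ran from 0.21 to 0.46.

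In the lower pathway the kinase Pgk1 (0.70, SE 0.54), the mutase Pgam1 (0.97, SE 0.75) and the enolase Eno1 (1.08, SE 0.64) had positive differences. Eno1 was at 9.91, 9.61, 10.15 and 11.96 on wild-type arrays and 11.47, 10.63, 12.72 and 11.12 on knockout arrays. All knockout arrays lay above 3 of the 4 wild-type arrays, and wild-type array 4 was above 3 of the 4 knockout arrays. The neuronal enolase Eno2 ran the other way, at 7.89, 7.75, 8.38 and 7.45 on wild-type arrays and 7.18, 7.64, 7.47 and 7.13 on knockout arrays, with overlap (difference -0.51, SE 0.28, adjusted p = 0.487). The difference of Eno2 was -0.21 after cyclic loess, where the median of all genes was -0.01.

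The last steps make pyruvate and lactate. The pyruvate kinase Pkm differed by 0.14 (SE 0.52). Ldha encodes the lactate dehydrogenase subunit that favours lactate and is a classical Hif1a target. It was at 7.503, 11.47, 12.57 and 12.42 on wild-type arrays and 12.03, 10.93, 12.52 and 11.60 on knockout arrays. Wild-type array 1 was low and the other 7 arrays overlapped, so the difference of 0.78 (SE 1.11) became -0.38 without array 1. Ldhb, the subunit that favours pyruvate, differed by 0.33 (SE 1.36), and by -0.91 without array 8.

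Regulators of flux set the pace from outside the pathway. On the probes used, 2 of the 3 had lower signal on every knockout array, as had 10.8% of all tested genes. Other probes gave 3.12 for Pfkfb4 and 0.37 and -0.01 for Pdk1. After cyclic loess 0 of the 40 genes were wholly lower, beside 2.53% of all genes. Pfkfb4 makes and degrades fructose 2,6-bisphosphate, the activator of phosphofructokinase. It was at 11.76, 12.11, 11.97 and 11.55 on wild-type arrays and 11.54, 11.48, 11.42 and 11.16 on knockout arrays, a difference of -0.45 (SE 0.24, adjusted p = 0.479). Separation was narrow, and it stands close to the median of all genes at -0.33. After cyclic loess the difference was -0.20. Pdk1 encodes a kinase that shuts pyruvate out of the mitochondrial citric acid cycle and is a known Hif1a target. Its signal was 13.58, 10.04, 10.35 and 10.49 on wild-type arrays and 9.92, 9.89, 9.57 and 9.82 on knockout arrays. Wild-type array 1 stood far above the others, so that the difference of -1.32 (SE 0.76, adjusted p = 0.499) was -0.49 without it. The third, Pfkfb3, the strongly kinase-active and inducible form, was at 9.21, 10.30, 12.46 and 5.25 on wild-type arrays and 8.70, 8.14, 10.88 and 12.81 on knockout arrays. Wild-type array 4 was lowest and knockout array 8 highest, and the difference of 0.82 (SE 1.65) was -0.53 without array 4 and -0.07 without array 8.

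Oxygen sensing genes gave 3 differences above 0 and 3 below. Hif1a was at 7.59, 9.29, 9.17 and 11.64 on wild-type arrays and 7.74, 10.54, 11.08 and 9.01 on knockout arrays. The groups covered nearly the same range (difference 0.17, SE 1.02, adjusted p = 0.952). Epas1 encodes HIF-2 alpha, the other labile subunit. It was at 12.71, 12.73, 12.78 and 13.05 on wild-type arrays and 12.68, 12.50, 12.25 and 12.27 on knockout arrays, so every knockout array was lower, the closest pair by a small margin. Its difference of -0.39 (SE 0.23, adjusted p = 0.499) was close to the median of all genes, and it was -0.08 after cyclic loess. Arnt, their shared partner, differed by -0.06 (SE 0.46), and by 0.08 after scaling to the array median and 0.16 after cyclic loess.

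Egln3 encodes PHD3, a prolyl hydroxylase that is itself switched on by the factors it controls. It was at 9.36, 9.62, 9.55 and 9.33 on wild-type arrays and 10.17, 9.51, 9.40 and 10.63 on knockout arrays. Arrays 5 and 8 were above the wild-type range and arrays 6 and 7 within it (difference 0.46, SE 0.33, adjusted p = 0.561). Egln1, which encodes the main oxygen sensor PHD2, differed by -0.62 (SE 1.57), and by -2.05 without array 5. Vhl, the recognition subunit of the ubiquitin ligase, differed by 2.43 (SE 1.84). Its values ran from 3.62 to 10.54 on wild-type and from 4.47 to 10.50 on knockout arrays, and 3 of 4 wild-type arrays were well above background for it.

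Of the 9 tested targets of the hypoxia-inducible factors 7 had a difference above 0 and 2 below, and none had an unadjusted p under 0.05. Mxi1, a MYC antagonist that binds Max, had the highest, with 4.91, 6.29, 7.67 and 5.04 on wild-type arrays and 4.405, 11.28, 12.40 and 8.80 on knockout arrays. Arrays 6, 7 and 8 were above all wild-type arrays and array 5 was below them. The difference was 3.24 (SE 1.68, unadjusted p = 0.0916, adjusted p = 0.477).

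Bnip3 encodes a mitochondrial protein of mitophagy and is among the most widely induced hypoxia genes. It was at 11.36, 5.85, 5.95 and 8.32 on wild-type arrays and 11.39, 5.79, 9.54 and 12.01 on knockout arrays. Both groups held high and low arrays (difference 1.81, SE 1.70, adjusted p = 0.655). Its relative Bnip3l, also a mitophagy receptor, differed by 0.05 (SE 0.62). Adm, which encodes the vasodilator peptide adrenomedullin, was at 9.14, 11.21, 7.06 and 9.57 on wild-type arrays and 5.85, 13.54, 6.29 and 9.59 on knockout arrays. Knockout array 6 was highest and arrays 5 and 7 lowest of all 8, and the difference was -0.43 (SE 1.76), which became -2.003 without array 6.

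Car12, a membrane carbonic anhydrase that acidifies the outside of the cell, was at 6.62, 5.75, 6.08 and 7.41 on wild-type arrays and 5.61, 5.74, 5.63 and 5.83 on knockout arrays. The knockout arrays lay close together at the lower edge of the wild-type range (difference -0.76, SE 0.38, unadjusted p = 0.0809, adjusted p = 0.471). Remaining targets were the mTOR inhibitor Ddit4 (1.18, SE 2.37), the differentiation gene Ndrg1 (0.09, SE 0.52), the collagen prolyl hydroxylase P4ha1 (0.15, SE 1.12) and the histone demethylase Kdm3a (1.28, SE 1.26). Kdm3a was at 11.66 on array 5 and between 5.90 and 6.75 on the other 7 arrays, and without array 5 its difference was -0.11. Car9, the carbonic anhydrase most often used as a hypoxia marker, was well above background on 1 wild-type and 1 knockout array. Ankrd37, an ankyrin repeat protein, was well above background on 2 wild-type and 0 knockout arrays, which gives at least 3.01-fold higher signal in wild-type arrays. For that bound, each knockout array was set to the dimmest signal that was still well above background, or to the signal of the probe where that was higher, and it rests on wild-type array 2, at 10.05.

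Averaged over the 40 genes, the signal was 9.27, 9.23, 9.59 and 9.50 on wild-type arrays and 10.10, 9.08, 10.52 and 10.18 on knockout arrays. Knockout arrays 5, 7 and 8 were above all wild-type arrays and array 6 was below them. For the glycolytic enzymes the means were 9.66, 10.14, 10.40 and 10.68 against 10.84, 9.65, 11.38 and 11.46, with the same array 6 at the low end. The 9 tested targets of the hypoxia-inducible factors averaged 7.85, 8.01, 8.42 and 8.07 against 8.56, 8.49, 9.43 and 8.82, without overlap, although the gap between array 3 and array 6 was small. Means over all tested genes ran the other way, at 8.25 to 8.46 on wild-type and 8.06 to 8.22 on knockout arrays. Ankrd37 and Car9, too dim to test, are not in the means of the targets. Ankrd37 was at 10.05 on wild-type array 2 and at 1.74 to 3.27 on knockout arrays, and Car9 was highest at 6.70 on knockout array 7. The lack of overlap thus holds for the tested targets only, and it leans on single genes. Adm was at 13.54 and Mxi1 at 11.28 on array 6, where the other tested targets were at 5.74 to 9.98. On array 3 Ddit4 was at 13.74.

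**Figure D3:**
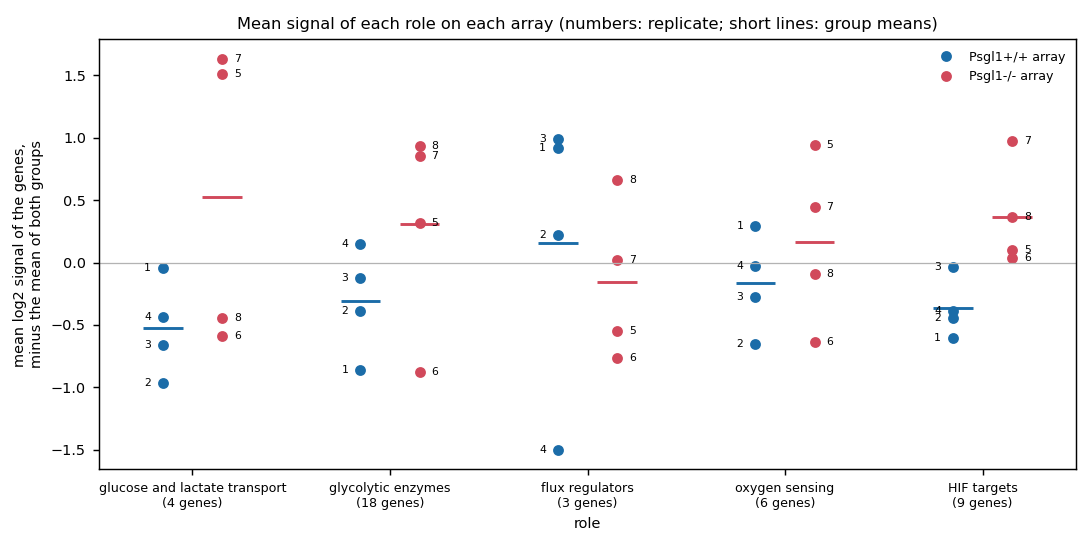
Mean log2 signal of the genes of each role on each array, minus the mean of both groups, with replicate numbers beside the points and short lines at the group means. Knockout array 6 lies lowest of the knockout arrays in each role. The groups overlap in every role except the hypoxia-inducible factor targets (9 tested genes, without Ankrd37 and Car9), where the separation leans on single genes.

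Array 7 was the highest of the 8 arrays for 11 of the 40 genes, beside 9.45% of all tested genes, and the lowest for 3, beside 31.7% of all genes. Wild-type array 4 was the highest for 8 of the 40 and for 27.8% of all genes. Array 8 was the highest for 7 of the 40 and the lowest for 5, beside 7.96% and 24.4% of all genes. Within slide row 1, which holds arrays 2, 4, 6 and 8, 18 of 40 differences were above 0 (45%, median -0.06). Of all genes 31.0% were above 0 there (median -0.40). Within slide row 2 there were 26 of 40 (65%, median 0.47), beside 34.6% of all genes (median -0.29).

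Signals of these genes varied widely among arrays of the same genotype. The range within at least 1 group exceeded 3 log2 units, which is 8-fold, for 22 of the 40 genes (55%), beside 35.5% of all tested genes. The median standard deviation within a group was 1.18 for the 40 genes, 1.15 for those of glycolysis and transport and 1.76 for those of hypoxia, beside 0.76 for all genes. For the 86 other tested genes of the same pathways, described below, the share was 60.5% and the median standard deviation 1.36. The wide spread was thus not particular to the 40 genes. Ddit4 spanned 3.95 to 13.74 on wild-type arrays, and Slc16a3, Pfkl, Pfkm, Tpi1, Pfkfb3, Egln1, Vhl, Bnip3, Mxi1 and Adm also spanned more than 6 log2 units in at least 1 group. High arrays were not the same from gene to gene. Array 5 was high for Pfkm, Egln1, Kdm3a and Slc16a1, array 6 for Adm, arrays 6 and 7 for Mxi1, and array 8 for Ldhb and Pfkfb3.

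**Figure D4:**
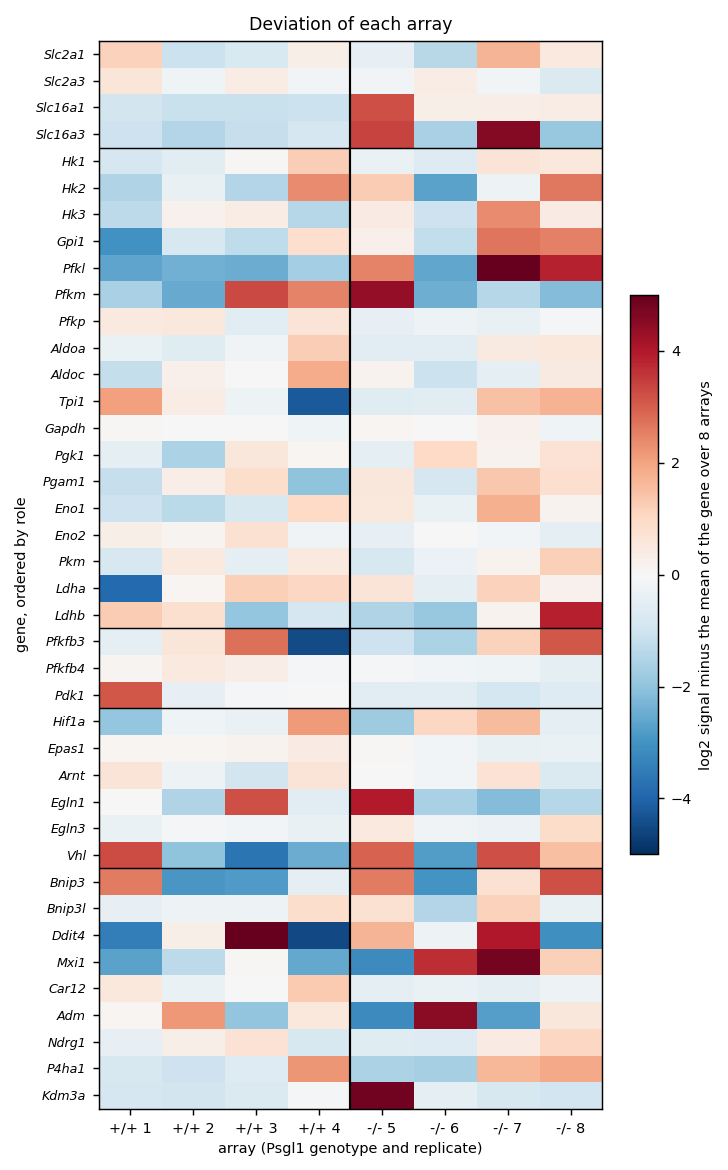
Log2 signal of each of the 40 genes on each array minus its mean over the 8 arrays, red above and blue below, with wild-type arrays left and knockout arrays right of the thick line. Single strong cells stand out against pale rows, as for Kdm3a on array 5 and Tpi1 and Pfkfb3 on array 4, while Gapdh, Epas1 and Pfkfb4 stay pale across all arrays.

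Probes of the same gene did not always give the same sign. Of the 42 genes, 25 had 1 probe, and 16 had more than 1 tested probe. The probe used was not the brightest on wild-type arrays for 2 of the 16 (Pfkl and Gpi1) and not the brightest on knockout arrays for 1 (Pfkp). All probes shared a sign for 8 of these 16, and for the other 8 they did not. Of 62 tested probes, 0 passed an adjusted p under 0.05, against 0.0176% of all tested probes. The probes of Pfkl and Gpi1, whose differences were among the highest, are shown by their first 30 bases because they disagree:
Pfkl, RefSeq transcript NM_008826.4: accttgagcatagacaagggtttctgagct
Pfkl, transcript model AK008812: gctgttcaccaaagtctgtttgactggagg
Pfkl, transcript model ENSMUST00000145716: gaactccacttgtcccagaaacttcagtca
Gpi1, RefSeq transcript NM_008155.3: catgttgttctgacctgtatttcacacccc
Gpi1, transcript model BC172124: tggaattgaccctcaaaacatgttcgagtt

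These sequences come from the deposited files, and no probe of a gene shared a run of 20 bases with another. In the order printed, the Pfkl probes gave differences of 4.61 (SE 1.57 in the fit over probes), 0.87 (SE 1.35) and -0.59 (SE 0.63). The files place the probe of AK008812 at chr10:77470357-77470416 and that of ENSMUST00000145716 at chr10:77463425-77463467, in mouse build mm9 on the minus strand, the strand of the gene. On the AK008812 probe array 5 was at 11.42 and the other 7 arrays at 5.31 to 7.95, so arrays 7 and 8, high on the RefSeq probe, were not high here. The Gpi1 probes gave 2.13 (SE 1.11) and -1.75 (SE 1.79), the latter placed at chr7:35000956-35001015 in mm9 on the minus strand.

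Similar disagreement was found among the regulators. Of the 2 probes of Pfkfb4, that of the predicted transcript XM_006512139.1 gave -0.45 (SE 0.24) and that of NM_173019.5 gave 3.12 (SE 1.64). The 3 probes of Pdk1 gave -1.32, 0.37 and -0.01, and those of Hif1a 0.17, 0.98 and -0.75, where the probe with 0.98 lies on the strand opposite to the gene. For Pfkp the probe of ENSMUST00000142372 gave -0.55 and that of NM_019703.3 gave 3.03 (SE 1.80). The RefSeq probe of Gapdh, which also lists the gene model Gm12070, gave 1.26 (SE 0.53), with 9.99 to 11.88 on wild-type and 11.32 to 12.89 on knockout arrays, against 0.06 on the probe used above. The RefSeq probe of Eno1 (1.76, SE 1.39) also lists Eno1b.

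Sorted by the kind of transcript, 31 of 44 tested RefSeq probes of these genes had a difference above 0 (70.5%), beside 33.8% of all tested RefSeq probes of named genes. Of the 18 tested probes of other transcript models 9 did (50%), beside 29.3%. The median standard deviation within a group was 1.74 for the RefSeq probes and 0.77 for the others, so that the wide swings between arrays lay more on the RefSeq probes. Over all named genes the figures were 0.82 and 0.83.

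**Figure D5:**
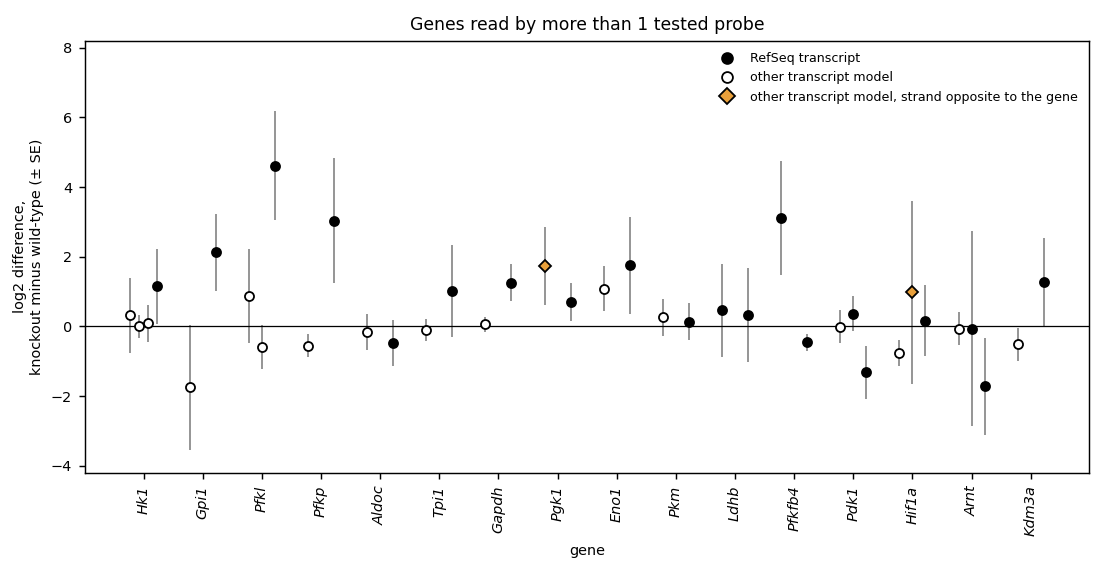
Log2 difference (knockout minus wild-type) with its standard error (n = 4 arrays per group) for each tested probe of the 16 genes that had more than 1. Filled points are RefSeq transcripts, open points other transcript models, and diamonds probes on the strand opposite to the gene. For Pfkl, Gpi1, Pfkp and Pfkfb4 the RefSeq probe with the highest value stands well apart from the other probes.

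The promoters show what many of these genes share in sequence, independent of the arrays. The hypoxia-inducible factors bind a core of A or G followed by CGTG. Windows of 300 bases, 250 before to 50 after each gene's start, were taken from RefSeq (GRCm38.p6) for 38 of the 42 genes and searched on both strands, after the array values had been seen. ACGTG was found for 24 of the 38 (63.2%), beside 21.8% of all genes with such windows, and GCGTG for 23 (60.5%), beside 35.2%. Either was found for 33 (86.8%), beside 46.7%. Windows of the 38 genes also held more G and C, with a median of 61.3% beside 52.7% of all windows, and a match of 5 letters is a description, not a binding site. For 12 of the 24 genes, selected after the values were seen to cover every role and differences of either sign, 30 bases around matches of ACGTG are shown on the strand of the gene, with ACGTG and its reverse complement CACGT in capitals (overlapping matches form CACGTG):
Slc16a1, chr3:104638453-104638482, plus strand: cggcgccgggtCACGTGgcgggaagggggg
Slc16a3, chr11:120949037-120949066, plus strand: gtgACGTGcgcgggggACGTGccgcgcgac
Slc2a1, chr4:119108697-119108726, plus strand: gtcccgccccggACGTGctccccaggcccc
Pfkm, chr15:98092442-98092471, plus strand: attaagtatgcCACGTGaagtaagtaattt
Aldoa, chr7:126799363-126799392, minus strand: tgtggctcgagtCACGTcctagcggggcgg
Pgk1, chrX:106186948-106186977, plus strand: ggACGTGacaaatggaagtagCACGTctca
Ldha, chr7:46845754-46845783, plus strand: taCACGTGggttcccgCACGTccgctgggc
Pfkfb3, chr2:11553972-11554001, minus strand: ctccgcgccgtgACGTGccaagctgtgacc
Egln1, chr8:124949305-124949334, minus strand: gggccgtggtgtACGTGcagcgcgcgcgga
Egln3, chr12:54204086-54204115, minus strand: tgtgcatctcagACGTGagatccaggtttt
Bnip3, chr7:138909596-138909625, minus strand: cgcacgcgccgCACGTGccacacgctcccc
Ankrd37, chr8:45999851-45999880, minus strand: ggctgcacatgtcagtgtttgggtACGTGa

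Genes with ACGTG had differences of either sign, among them -0.81 for Pfkm and -0.62 for Egln1. Slc16a1 and Slc16a3, with differences of 2.12 and 2.23, hold 2 matches of ACGTG each before the start, and Ldha, with 0.78, holds 5, where CACGTG counts as 2. Of the 22 tested genes with ACGTG 18 had a difference above 0 (median 0.47), and of the 14 tested genes with a window but without ACGTG 7 did (median 0.14). These counts carry no test. The split uses ACGTG alone, and genes without it can hold GCGTG, the other form of the core. Either form was found for 33 of the 38 genes and ACGTG for 24. The split thus does not divide genes with the core from genes without it. Pfkl and Gpi1 had no match of ACGTG in these windows.

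Other genes of the same pathways had differences above 0 less often than not. Of 91 such genes on the array, taken from lists of glucose metabolism, the pentose phosphate pathway, pyruvate entry into mitochondria, oxygen sensing and further targets of the hypoxia-inducible factors, 86 were tested. None passed the adjusted threshold (lowest adjusted p = 0.459), and at an unadjusted p under 0.05 there were 0 with higher and 5 with lower signal in knockout arrays, beside the background of 1.63% and 9.18% of all genes. Differences were above 0 for 35 and below for 51, which is 40.7% above 0 (median -0.24), beside 31.1% of all genes (median -0.33). The further targets were split 18 to 13 (median 0.12), whereas other glucose metabolism had 5 above 0 and 18 below, and other oxygen sensing 3 and 10.

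The 6 with the smallest unadjusted p all had lower signal in knockout arrays. They were the insulin-sensitive glucose transporter Slc2a4 (-1.16, SE 0.30), the lactate and pyruvate transporter Slc16a7 (-3.49, SE 1.22), the p300 partner and HIF inhibitor Cited2 (-0.57, SE 0.23), the lipoprotein lipase inhibitor Angptl4 (-0.71, SE 0.30), the muscle enolase Eno3 (-2.49, SE 1.07) and the pentose phosphate epimerase Rpe (-0.58, SE 0.25), each with an adjusted p of 0.459. Slc2a4 was at 7.54, 8.34, 8.09 and 8.15 on wild-type arrays and 7.27, 7.11, 6.49 and 6.60 on knockout arrays, without overlap. Slc16a7, a relative of Slc16a1, was at 9.58, 11.40, 6.72 and 13.02 on wild-type arrays and 6.93, 6.55, 6.37 and 6.90 on knockout arrays, which is opposite in sign to Slc16a1.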

How the data were processed

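RNA of sorted cells from 8 samples (4 per group) was read on 1-colour Agilent arrays. The deposited scanner files give each spot as an intensity that Feature Extraction had corrected for background, per the file headers, with probe coordinates in mm9. A value table from the authors, deposited beside these files, holds linear intensity and served as an alternative. Its scale is not stated in the sources used here, and it was read as linear from comparison with the scanner files. Control spots and outlier spots were left out, spots of a probe averaged, and 186 probes without a value on some array dropped. Probes were named through RefSeq accession, symbol or older symbol (GRCm38.p6). Log2 signals were scaled to each array's 75th percentile, with 1 constant (9.55) added to all, and a gene was read by its brightest probe, kept where 4 or more of the 8 arrays had it well above background. Differences were fitted with limma 3.58.1 (lmFit, eBayes) in R 4.3.3, two-sided, with Benjamini-Hochberg adjustment over all 42314 genes or 51206 probes, after the scripts were tested on simulated data. Python 3.11.15, pandas 2.3.3, numpy 2.4.6 and matplotlib 3.10.9 were also used. The number of arrays limits the precision. Values on every array are given for 9 core genes, for genes whose groups do not overlap, for the 10 smallest unadjusted p, and for 1 further gene, Slc16a3, chosen after its values were seen; 6 other pathway genes are named by smallest p, and 2 of these array by array. The genes, lists and rules were chosen with earlier results of these data known. The summaries of ranges, kinds of probe and promoters were added after values were seen. Alternatives were other scalings, background correction, filters, probe rules, slide row and left-out arrays.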

Additional observations from a re-analysis of the deposited data

Results flagged for a closer look

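In 8 of 80 groups of 4 arrays (40 genes, 2 genotypes) a single array lay far from the other 3, with a gap to the nearest one, as a share of the group's range, above Dixon's critical value for 4 samples. Chance flags about 1 in 20 groups if values follow a normal distribution. The share flagged over all tested genes was not computed, so 8 of 80 cannot be read as particular to these genes. Of the 8, 7 were high arrays and 4 were knockout array 5. On array 5 Slc16a1 was at 9.30 (the other knockout arrays at 6.36 to 6.45), Pfkm at 10.29 (3.45 to 4.46), Egln1 at 11.98 (5.86 to 6.59) and Kdm3a at 11.66 (5.90 to 6.34). On wild-type array 1 Pdk1 was at 13.58 (the other wild-type arrays at 10.04 to 10.49). On wild-type array 4 Bnip3l was at 12.30 (11.004 to 11.16) and P4ha1 at 12.81 (9.55 to 9.96). On wild-type array 3 Pfkp was low, at 7.33 (8.42 to 8.56). Knockout arrays 6, 7 and 8 and wild-type array 2 stood apart for none of the 40 genes in this way.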

How the results depend on the processing

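The precision is limited by 4 arrays per group. In none of the 21 alternatives did any of the 40 genes or the other pathway genes pass the adjusted threshold by limma, nor any of their probes in the 19 alternatives run over probes, while 1 to 5 of the 40 had an unadjusted p under 0.05. The count of genes wholly lower in knockout arrays was 3 (10.8% of all genes). It was 1 after quantile normalization (5.20% of all genes), median scaling (6.14%), normexp (5.08%) or averaging probes (10.1%). It was 0 after cyclic loess (2.53%) and in the value table (5.16%). Within slide rows 1 and 2 it was 6 and 7 (36.5% and 30.6%). Without knockout arrays 7 and 8 it was 5 (17.2%). The count wholly higher (1) was 3 and 9 within slide rows 1 and 2 (8.42% and 8.81% of all genes, with 2 arrays against 2), and 1 to 3 with 1 array left out, with 2 without array 4 or 5 and 3 without array 6. The median of the glycolysis genes (0.33) ran from -0.09 without knockout arrays 7 and 8 to 0.78 with RefSeq probes only. That of the hypoxia genes (0.15) ran from -0.23 within slide row 1 to 0.78 within slide row 2, so both changed sign. In the same order, the medians of all genes in these settings were -0.26, -0.30, -0.40 and -0.29. Of the 40 genes, 16 kept their sign in every alternative, 11 above 0 and 5 below. Over all 40 genes and the alternatives, 91 of 837 differences, none of them called, changed sign. Aldoa became positive after quantile normalization (0.083), median scaling (0.075), cyclic loess (0.21), normexp (0.053) and in the value table (0.091), and Arnt after median scaling (0.084) and cyclic loess (0.16). Pfkp was 1.24 and Pfkfb4 1.33 when probes were averaged, and Pfkp 3.03 with RefSeq probes only. Within slide row 1 the changed values were Slc2a1 -0.073, Slc16a3 -0.61, Hk1 -0.39, Hk2 -1.02, Pkm -0.038, Ldha -0.68, Hif1a -0.69, Bnip3l -1.21, Adm 1.18, P4ha1 -0.47 and Kdm3a -0.23. Within slide row 2 they were Pfkm 0.65, Aldoa 0.18, Aldoc 0.45, Tpi1 -0.48, Pgk1 -0.19, Ldhb -0.35, Pfkfb3 -1.05, Arnt 0.48 and Ndrg1 -0.26. Without knockout arrays 7 and 8 they were Slc2a1 -0.81, Hk1 -0.45, Hk2 -0.48, Pfkm 0.59, Tpi1 -0.091, Pkm -0.47, Ldhb -1.53, Pfkfb3 -0.89, Hif1a -0.28, Egln1 0.86, Bnip3l -0.31, Adm 0.45, Ndrg1 -0.58 and P4ha1 -1.55. With 1 array left out, 20 genes changed sign, with ranges of Slc2a1 -0.35 to 0.69, Hk1 -0.18 to 0.51, Hk2 -0.32 to 1.46, Pfkm -2.41 to 0.15, Aldoa -0.29 to 0.33, Aldoc -0.94 to 0.077, Tpi1 -0.22 to 1.87, Pkm -0.23 to 0.43, Ldha -0.38 to 1.30, Ldhb -0.91 to 1.01, Pfkfb3 -0.53 to 1.88, Hif1a -0.44 to 0.91, Arnt -0.37 to 0.16, Egln1 -2.05 to 0.35, Bnip3l -0.32 to 0.54, Ddit4 -0.12 to 3.14, Adm -2.003 to 0.56, Ndrg1 -0.24 to 0.36, P4ha1 -0.45 to 0.91 and Kdm3a -0.11 to 1.81. The fits within a slide row and with arrays left out had fewer arrays; other causes were not tested. No paired analysis was possible because wild-type samples are numbered 1 to 4 and knockout samples 5 to 8, so the groups share no replicate number.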
